A study of Mus musculus with 4 samples.

Results

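Mitotic genes of G2 and M phase were followed in LSK cells, a sorted population of mouse bone marrow cells that lack lineage markers (L), carry Sca-1 (S) and c-Kit (K) and include blood stem cells and early progenitors. The set held 54 genes chosen by symbol from a list of mitotic kinases, kinesins, kinetochore and chromosome condensation genes, out of 47561 genes in the expression tables. All 54 were found, and all 54 passed the filter on low values, with no member below 1.20 FPKM in any library. FPKM stands for fragments mapped to a transcript, scaled by its length and by all mapped fragments of the library. Libraries came from sorted LSK cells of 4 C57BL/6 mice aged 12 weeks. Metrn cKO mice (n = 2) carried a floxed Metrn gene together with LysM, the lysozyme M driver used to delete genes in myeloid cells such as macrophages and neutrophils. Metrn f/f mice (n = 2) carried the same floxed gene without the driver and were labelled wild type. Meteorin, the product of Metrn, is a secreted protein, and the series asked what meteorin from macrophages does to blood stem and progenitor cells. LysM is active in myeloid cells, so LSK cells themselves need not have lost the gene.

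Entry into mitosis is driven by cyclin B bound to the kinase CDK1, with Polo-like and Aurora kinases acting beside it. Kinesins and spindle proteins then pull chromosomes apart once the checkpoint at kinetochores is satisfied, and the anaphase-promoting complex ends mitosis by marking cyclins and other proteins for destruction. Most of these genes are transcribed in waves, late in the cycle, under the MuvB complex with MYBL2 and FOXM1. In bone marrow most long-term stem cells rest outside the cycle, while multipotent progenitors divide often. In bulk RNA, fewer cells in mitosis and less RNA per mitotic cell cannot be told apart.

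The promoters of the set shared letters that the choice of genes did not use. MuvB binds the cell cycle genes homology region, or CHR, and the factor NF-Y binds CCAAT boxes. RefSeq windows from 250 bases before to 50 bases after each start (GRCm38.p6) were found for 47 of the 54 genes, as 52 windows. TTTGAA or TTCGAA was searched on both strands as the CHR letters, and CCAAT on both strands; the CHR and CCAAT letters overlapped in 1 of the member windows. The CHR letters lay within 100 bases before the start, or after it, in 33 of the 52 member windows (63.5%), against 5.73% of 12216 windows of genes tested here and 8.59% of all 32851 windows. CCAAT occurred at least once in 76.9% of member windows, against 38.2% of windows of genes tested and 37.4% of all windows. At least 2 CCAAT boxes were present in 57.7% of member windows, against 14.5% and 11.7%. Both the CHR letters near the start and a CCAAT box were found in 28 member windows (53.8%), against 2.59% of windows of genes tested and 3.42% of all windows. A match of letters is a description and does not show that a factor is bound.

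Stretches from 150 to 4 bases before the start are given for 6 of the genes described below, those of highest mean FPKM with the CHR letters in this stretch, because they show how these letters are placed. They are Hmgb2 at chr8:57511693-57511839 (plus strand), Ube2c at chr2:164769779-164769925 (plus strand), Tmpo at chr10:91170554-91170700 (minus strand), Top2a at chr11:99024193-99024339 (minus strand), Lbr at chr1:181842405-181842551 (minus strand), Cdc20 at chr4:118437347-118437493 (minus strand), each written 5′ to 3′ in the direction of the gene. Capitals mark the CHR letters (TTTGAA, its reverse complement TTCAAA, or TTCGAA) and the CCAAT letters (CCAAT or its reverse complement ATTGG).
Hmgb2: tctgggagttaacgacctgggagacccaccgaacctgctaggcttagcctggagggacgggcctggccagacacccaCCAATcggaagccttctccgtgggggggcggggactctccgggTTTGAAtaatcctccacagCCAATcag
Ube2c: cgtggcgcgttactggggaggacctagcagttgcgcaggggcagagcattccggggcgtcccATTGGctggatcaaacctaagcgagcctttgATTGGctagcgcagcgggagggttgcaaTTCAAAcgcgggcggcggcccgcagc
Tmpo: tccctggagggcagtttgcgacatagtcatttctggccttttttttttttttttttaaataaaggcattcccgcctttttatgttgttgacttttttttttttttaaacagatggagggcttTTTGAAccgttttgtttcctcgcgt
Top2a: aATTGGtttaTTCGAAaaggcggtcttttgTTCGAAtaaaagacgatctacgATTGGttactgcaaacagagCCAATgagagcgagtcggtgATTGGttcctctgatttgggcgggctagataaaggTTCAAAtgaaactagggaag
Lbr: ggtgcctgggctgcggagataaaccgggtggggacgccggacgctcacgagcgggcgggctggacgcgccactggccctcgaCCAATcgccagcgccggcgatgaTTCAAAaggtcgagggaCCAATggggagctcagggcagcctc
Cdc20: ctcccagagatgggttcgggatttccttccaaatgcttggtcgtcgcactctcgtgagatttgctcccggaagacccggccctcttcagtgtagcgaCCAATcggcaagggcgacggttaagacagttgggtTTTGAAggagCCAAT
In Ube2c the CHR letters began 29 bases before the start, downstream of CCAAT letters that began 88 and 57 bases before it. Hmgb2, Lbr and Cdc20 had CCAAT letters on both sides of the CHR letters. Top2a had 3 sets of CHR letters and 4 CCAAT boxes in this stretch. The stretch of Tmpo, 1 of the 2 windows of that gene, had the CHR letters and no CCAAT box.

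The 4 libraries did not group by genotype in these measures. Metrn had 42.3 and 36.7 FPKM in Metrn cKO 1 and 2, against 29.3 and 66.3 FPKM in Metrn f/f 1 and 2, and its log2 fold change of -0.16 (SE 0.49) did not pass the test, so the targeted gene does not check the labels in these cells. Markers of mature blood cells differed between mice of the same genotype. The 12 neutrophil markers summed to 58836 and 2043 FPKM in Metrn cKO 1 and 2, against 2605 and 32718 FPKM in Metrn f/f 1 and 2. In the same order the 12 macrophage and monocyte markers summed to 238 and 71.2, against 64.4 and 1081 FPKM. The high pair was thus 1 mouse of each genotype, and the sums of erythroid and B cell markers were highest in the same pair. The 12 erythroid markers summed to 15454 and 1620, against 1981 and 19204 FPKM, most of it from the globin genes Hba-a1 and Hbb-bt. Erythroid regulators were high in Metrn f/f 2 alone: Gata1 had 3.10 and 2.55, against 4.02 and 17.8 FPKM, and Klf1 had 5.31 and 2.28, against 3.25 and 36.2 FPKM. The 12 B and plasma cell markers summed to 1170 and 78.7, against 70.0 and 602 FPKM. Of these, 11 were higher in Metrn f/f 2 than in Metrn f/f 1, but not all by much. Pax5, Ebf1 and Rag1 were high in Metrn cKO 1 alone, at 8.093, 9.301 and 9.455 FPKM. In Metrn f/f 2 they had 1.513, 1.879 and 1.096 FPKM, and Rag1 was lowest there. The high pair thus differed in its B cell markers. The sum of the 14 LSK and stem cell markers ran the other way, at 451 and 1297, against 1153 and 588 FPKM, with Adgrg1, Cd34, Flt3 and Kit as its most abundant genes. Not all of the list did so. Ly6a, which encodes Sca-1, was highest in the mice with mature cell markers, at 48.4 and 38.2, against 37.2 and 83.2 FPKM, and Procr and Slamf1 were higher in Metrn f/f 2 than in Metrn f/f 1. T and NK cell markers summed to 203 and 166, against 166 and 283 FPKM, most of it from Nkg7. Of all these markers, only Ms4a1 in Metrn cKO 2, 4 T and NK cell genes in Metrn cKO 2 and Cd3d in Metrn f/f 1 were listed at 0. Metrn cKO 1 and Metrn f/f 2 therefore stood apart from Metrn cKO 2 and Metrn f/f 1, and the part of these cells in the results that follow was not tested. No batch or sequencing date is given in the labels. FPKM summed to between 392717 and 671802 per library, and read depth is unknown.

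The genotypes were compared to ask whether mitotic transcripts of LSK cells differ when Metrn is deleted in myeloid cells. Mitotic genes were mostly higher on average in Metrn cKO, but the set was not higher in Metrn cKO 2 than it was in Metrn f/f 1. The median log2 fold change of the set, 0.35, was similar in size to the median differences between mice of 1 genotype. Those were -0.38 for Metrn f/f 2 minus Metrn f/f 1 and 0.30 for Metrn cKO 1 minus Metrn cKO 2. None of the 54 genes passed (limma, adjusted p under 0.05; 0% of 13148 genes tested passed), and none had an unadjusted p under 0.05, against 39 of all genes tested (0.297%). The smallest member p was 0.231, for Kif2c. The median log2 fold change of the set was 0.35, beside 0.07 over all genes tested, and single genes ranged from -0.36 (Psrc1) to 0.91 (Mki67), with standard errors between 0.38 and 0.74. The fold change was above 0 in 46 genes (85.2%), against 57.6% of all genes tested. Both Metrn cKO values lay above both Metrn f/f values in 7 genes (13.0%; 6.31% of all genes tested) and below them in 1 gene (1.85%; 5.73% of all genes tested). Without Metrn f/f 2 the median was 0.08, and without Metrn cKO 1 it was 0.13. Metrn cKO 2 set against Metrn f/f 1 alone, the libraries with little of the mature cell markers, gave a median of -0.07, with 15 members higher (57.9% of all genes tested) and 39 lower in Metrn cKO 2. The median difference of Metrn cKO 1 was 0.25 from Metrn f/f 1 (39 of 54 members higher; 38.6% of all genes tested) and 0.69 from Metrn f/f 2 (47 of 54; 54.9%). That of Metrn cKO 2 from Metrn f/f 2 was 0.37 (35 of 54; 60.2%). Metrn f/f 2 was the lowest library in 35 members (44.5% of all genes tested) and Metrn cKO 1 the highest in 33 (14.8%).

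**Figure D1:**
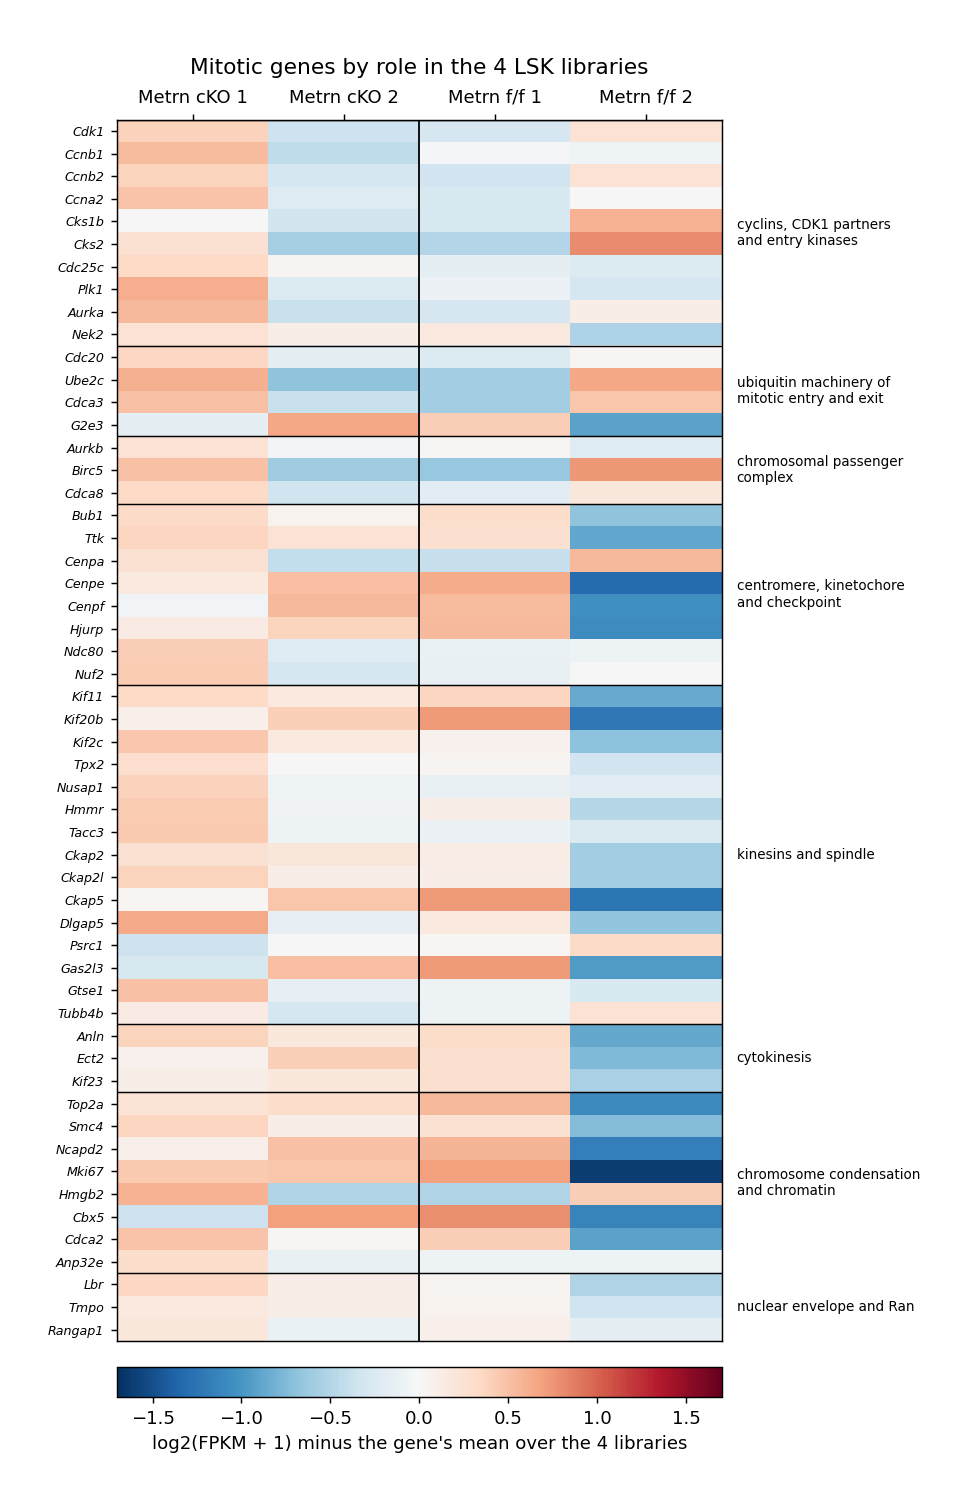
Colours give log2(FPKM + 1) of each of the 54 mitotic genes minus its mean over the 4 libraries (columns, 1 mouse each), in 8 role groups (rows). Metrn f/f 2 holds both the strongest blue (Mki67, Cenpe, Ckap5) and strong red (Cks2, Birc5, Ube2c), and Metrn cKO 1 is red in most rows.

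The cyclins, the partners of CDK1 and the kinases of mitotic entry (10 genes) had a median log2 fold change of 0.14, with 0 passing the test. Cdk1, the kinase that drives mitotic entry, had 32.8 and 19.3 FPKM in Metrn cKO 1 and 2, against 20.1 and 29.4 FPKM in Metrn f/f 1 and 2. Ccnb1, which encodes cyclin B1, had 52.6 and 26.4 FPKM in Metrn cKO 1 and 2, against 35.6 and 34.1 FPKM in Metrn f/f 1 and 2. For both genes Metrn cKO 1 was the highest library and Metrn cKO 2 the lowest, so the groups overlapped. Cks2, a small subunit that docks CDK1 on its substrates, had the highest mean of this group, at 160.0 and 89.3 FPKM in Metrn cKO 1 and 2, against 93.9 and 233 FPKM in Metrn f/f 1 and 2. Plk1, the Polo-like kinase of mitotic entry and spindle assembly, had 56.9 and 31.0 FPKM in Metrn cKO 1 and 2, against 34.1 and 29.9 FPKM in Metrn f/f 1 and 2, with a log2 fold change of 0.39 (SE 0.44). For Plk1 only Metrn cKO 1 lay clearly apart. Cdc25c, the phosphatase that removes the inhibitory phosphates from CDK1, had 10.1 and 8.05 FPKM in Metrn cKO 1 and 2, against 6.92 and 6.52 FPKM in Metrn f/f 1 and 2. Its groups did not overlap, and the lower Metrn cKO value exceeded the higher Metrn f/f value by 16.5%, the widest margin among the 8 genes without overlap. Its log2 fold change of 0.38 (SE 0.47) did not pass. Against Metrn f/f 1, all 10 genes of the group were higher in Metrn cKO 1 and 3 of 10 were higher in Metrn cKO 2.

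Genes of the ubiquitin machinery (4 genes) had a median log2 fold change of 0.16. Cdc20, the activator of the anaphase-promoting complex, had 93.3 and 65.4 FPKM in Metrn cKO 1 and 2, against 61.7 and 74.2 FPKM in Metrn f/f 1 and 2. Ube2c, the ubiquitin-conjugating enzyme that works with that complex, had 199.9 and 81.6 FPKM in Metrn cKO 1 and 2, against 87.7 and 208 FPKM in Metrn f/f 1 and 2. Ube2c was thus more than 2-fold higher in Metrn cKO 1 and Metrn f/f 2 than in the other libraries, whatever the genotype, and its log2 fold change of -0.08 (SE 0.64) did not pass and turned above 0 when libraries were scaled to equal FPKM sums. G2e3, a ubiquitin ligase named for its expression in G2 and M, ran the opposite way, at 3.60 and 7.16 FPKM in Metrn cKO 1 and 2, against 5.91 and 1.76 FPKM in Metrn f/f 1 and 2. Exons of Ube2c overlap those of Tnnc2 by up to 592 bases in GENCODE release M21; the strand setting of the counting is not given in the sources used here, so its level is uncertain.

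Of the chromosomal passenger complex, which corrects faulty attachments of chromosomes (3 genes), the kinase gene Aurkb had 57.7 and 46.8 FPKM in Metrn cKO 1 and 2, against 49.1 and 41.2 FPKM in Metrn f/f 1 and 2. Birc5, which encodes survivin, had 101 and 46.4 FPKM in Metrn cKO 1 and 2, against 45.1 and 119 FPKM in Metrn f/f 1 and 2. The level of Aurkb stayed within a narrow range, whereas Birc5 had the same high pair of libraries as Ube2c. The third member, Cdca8, encodes borealin and had a log2 fold change of -0.0012 (SE 0.43).

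Centromere, kinetochore and checkpoint genes (8 genes) had a median log2 fold change of 0.45, with 0 passing. Ttk, the checkpoint kinase MPS1, had 12.8 and 11.7 FPKM in Metrn cKO 1 and 2, against 12.0 and 4.80 FPKM in Metrn f/f 1 and 2. Here 3 libraries were close together and Metrn f/f 2 was low, beside a log2 fold change of 0.61 (SE 0.55). Cenpa, the histone H3 variant of centromeres, had 81.4 and 50.4 FPKM in Metrn cKO 1 and 2, against 51.1 and 99.8 FPKM in Metrn f/f 1 and 2. Metrn f/f 2 was the highest library for Cenpa and the lowest for Ttk. Transcripts that encode large kinetochore proteins of this group were low in Metrn f/f 2. The log2 difference of Metrn f/f 2 from Metrn f/f 1 was -1.94 for Cenpe, a kinesin that carries chromosomes to the spindle equator, and -1.57 for Cenpf. With the length trend of all genes removed, a step described below, these differences were -0.39 for Cenpe and 0.30 for Cenpf.

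Of the kinesins and spindle genes (15 genes), 4 were higher in Metrn cKO without overlap (6.31% of all genes tested) and 1 was lower (5.73%). Kif2c, a kinesin that takes microtubules apart at kinetochores (also called MCAK; chr4:117159639-117182639 on GRCm38), had 19.4 and 15.8 FPKM in Metrn cKO 1 and 2, against 14.7 and 8.22 FPKM in Metrn f/f 1 and 2, with a log2 fold change of 0.62 (SE 0.47). Nusap1, which bundles spindle microtubules, had 44.9 and 32.5 FPKM in Metrn cKO 1 and 2, against 31.3 and 29.6 FPKM in Metrn f/f 1 and 2. Tacc3, which holds microtubules of the spindle together with CKAP5, had 54.7 and 37.5 FPKM in Metrn cKO 1 and 2, against 37.4 and 33.4 FPKM in Metrn f/f 1 and 2. In Tacc3 the nearest values of the genotypes, those of Metrn cKO 2 and Metrn f/f 1, differed by 0.377%. Ckap2, a microtubule-associated protein of the spindle, had 15.1 and 14.4 FPKM in Metrn cKO 1 and 2, against 13.7 and 7.95 FPKM in Metrn f/f 1 and 2. Psrc1, another microtubule-associated protein, was the only member lower in both Metrn cKO mice without overlap, at 10.7 and 13.9 FPKM in Metrn cKO 1 and 2, against 14.3 and 17.6 FPKM in Metrn f/f 1 and 2. Its log2 fold change of -0.36 (SE 0.43) did not pass. Tubb4b, a beta tubulin present in cells at all stages, had the highest mean of the group, at 243 and 179 FPKM in Metrn cKO 1 and 2, against 207 and 261 FPKM in Metrn f/f 1 and 2. Tubulin genes are close paralogs and reads can be shared among them, so this level is uncertain.

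Cytokinesis genes (3 genes) had a median log2 fold change of 0.47. Anln, which encodes the actin-binding scaffold anillin of the cleavage furrow, had 11.1 and 9.63 FPKM in Metrn cKO 1 and 2, against 10.6 and 4.13 FPKM in Metrn f/f 1 and 2. Kif23, a kinesin of the central spindle, had 30.5 and 32.3 FPKM in Metrn cKO 1 and 2, against 34.7 and 19.1 FPKM in Metrn f/f 1 and 2. In both genes Metrn f/f 2 was the low library and the others were within a narrow range, and Ect2, the exchange factor that activates RhoA at the cell equator, was lowest in Metrn f/f 2 as well.

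Chromosome condensation and chromatin genes (8 genes) had the highest group median, a log2 fold change of 0.49, and again none passed. Mki67, the proliferation marker Ki-67 that coats mitotic chromosomes (chr7:135689784-135716361 on GRCm38), had 49.2 and 50.1 FPKM in Metrn cKO 1 and 2, against 59.0 and 11.0 FPKM in Metrn f/f 1 and 2. Top2a, the topoisomerase that untangles sister chromatids, had 94.0 and 98.8 FPKM in Metrn cKO 1 and 2, against 118 and 37.5 FPKM in Metrn f/f 1 and 2. For these genes Metrn f/f 1, not a Metrn cKO library, was the highest, while the low value of Metrn f/f 2 gave Mki67 a log2 fold change of 0.91 (SE 0.74). Hmgb2, a DNA-bending protein of dividing cells, had 394 and 183 FPKM in Metrn cKO 1 and 2, against 184 and 351 FPKM in Metrn f/f 1 and 2. Its level was nearly equal in Metrn cKO 2 and Metrn f/f 1, and about as high in Metrn cKO 1 as in Metrn f/f 2. Mki67 had a log2 fold change of -0.24 and Top2a one of -0.29 when Metrn f/f 2 was left out.

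The genes of the nuclear envelope and Ran (3 genes) had a median log2 fold change of 0.27. Lbr, the lamin B receptor, had 92.1 and 77.7 FPKM in Metrn cKO 1 and 2, against 74.6 and 50.5 FPKM in Metrn f/f 1 and 2. Tmpo, which encodes the lamina-associated LAP2 proteins, had 112 and 107 FPKM in Metrn cKO 1 and 2, against 104 and 78.9 FPKM in Metrn f/f 1 and 2. Neither gene overlapped between the genotypes, by margins of 4.25% and 2.45% of the higher Metrn f/f value. In each of the 8 genes without overlap the nearest values were those of Metrn cKO 2 and Metrn f/f 1. When libraries were scaled by median-of-ratios size factors, Kif2c and Ckap2 were the members higher without overlap (3.70% of members; 5.75% of all genes tested), and with equal FPKM sums they were Cdc25c and Cdc20 (3.70%; 3.28% of all genes tested). The 1 member lower without overlap was Psrc1 with median-of-ratios scaling (1.85% of members, against 6.28% of all genes tested). With equal FPKM sums it was Cks1b instead (1.85%, against 5.72%).

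**Figure D2:**
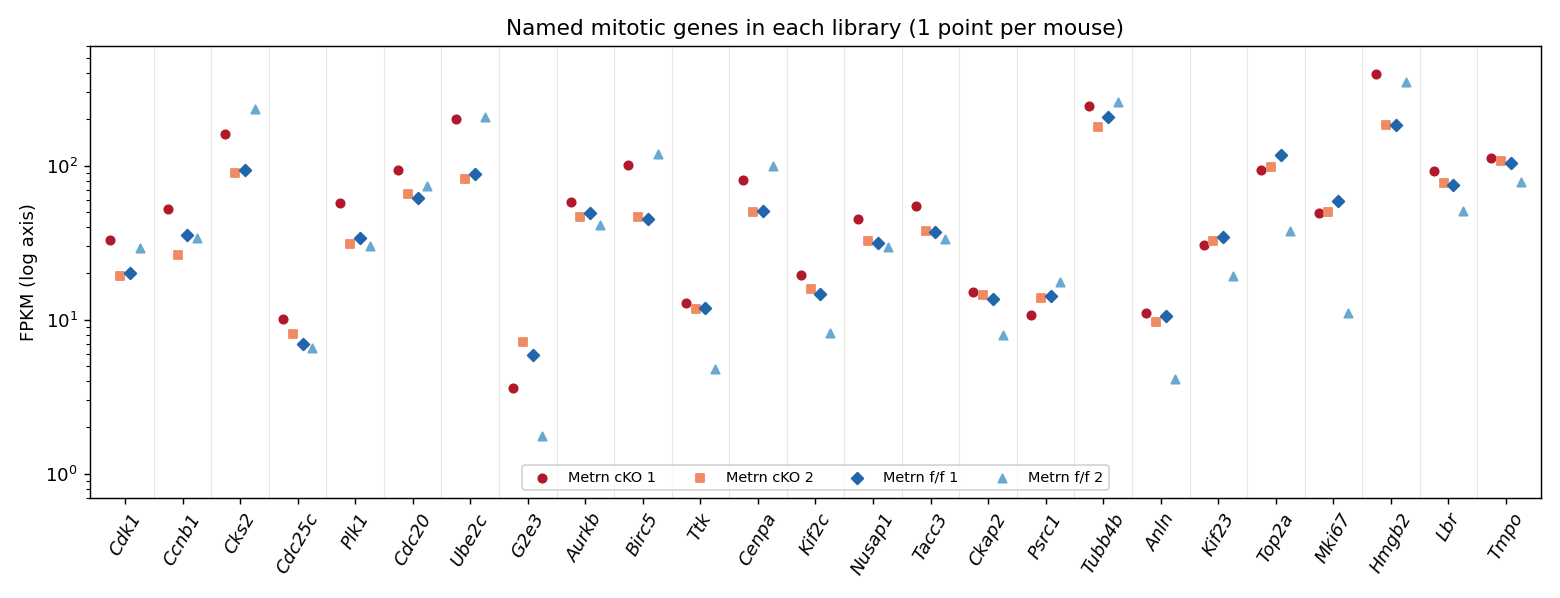
FPKM (log axis) of the 25 named mitotic genes in each library, 1 point per mouse, with Metrn cKO in red and orange and Metrn f/f in dark and light blue. Metrn cKO 2 and Metrn f/f 1 lie close together in nearly every gene, while Metrn f/f 2 is far below them in Mki67 (11.0 FPKM) and far above them in Cks2 (233 FPKM).

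Within a genotype, mitotic genes differed between mice in both directions. The median log2 difference of Metrn f/f 2 from Metrn f/f 1 came to -0.38, and 18 of 54 members were higher in Metrn f/f 2 (42.3% of all genes tested). Metrn f/f 2 was at least 2-fold above Metrn f/f 1 in 4 members (13.7% of all genes tested) and at least 2-fold below it in 16 members (21.9% of all genes tested), with log2 differences from -2.32 (Mki67) to 1.38 (Birc5). The 4 high members were Cdca3, Ube2c, Cks2 and Birc5. Metrn cKO 1 was at least 2-fold above Metrn cKO 2 in 3 members, Hmgb2, Birc5 and Ube2c (6.72% of all genes tested), and at least 2-fold below it in 1 member, Cbx5 (12.4%). Cbx5 encodes the heterochromatin protein HP1 alpha. The median of Metrn cKO 1 minus Metrn cKO 2 was 0.30, with 40 of 54 members higher in Metrn cKO 1 (35.3% of all genes tested). Between Metrn cKO 2 and Metrn f/f 1, mice of different genotype, 0 members differed 2-fold (0.745% of all genes tested were that much higher in Metrn cKO 2 and 0.616% lower), and the differences ran from -0.42 to 0.24. Across the 54 genes the differences Metrn cKO 1 minus Metrn cKO 2 and Metrn f/f 2 minus Metrn f/f 1, which share no library, had a Spearman rho of 0.81, given as a description.

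The members high in Metrn f/f 2 mostly had short transcripts and those low in it long ones, a property the choice of genes did not use. Lengths of the principal transcript in GENCODE release M21 ran from 692 nt (Cks2) to 11130 nt (Cenpf). Across the 54 genes the log2 difference Metrn f/f 2 minus Metrn f/f 1 had a Pearson r of -0.88 and a Spearman rho of -0.87 with log2 length. Over 12426 genes with a length the values were -0.53 and -0.68. All points of such a correlation share the same libraries. In the 18 shortest members (692 to 2489 nt) the median difference was 0.36, with 14 higher in Metrn f/f 2 (72.4% of all genes in that length range). In the 18 longest (3892 to 11130 nt) it was -1.60, with 1 higher, Cdk1 (8.78% of all genes in that length range). All genes tested in the same length ranges had medians of 0.45 and -1.11. Metrn cKO 1 minus Metrn f/f 1 had the same slope in a milder form, with an r of -0.75 across the members. Its median was 0.57 in the 18 shortest members, where all genes tested had 0.10, and -0.37 in the 18 longest, where all genes had -0.58. For Metrn cKO 2 minus Metrn f/f 1 the r was -0.21, and the medians of the shortest and longest members were -0.07 and -0.14. The principal transcript of Cdk1 is annotated at 4375 nt; the length the authors used for each gene is not given in the sources used here. With the exonic union as length the r values were -0.79, -0.65 and -0.19. Whether RNA quality, the library preparation or the cells present gave this slope was not tested.

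**Figure D3:**
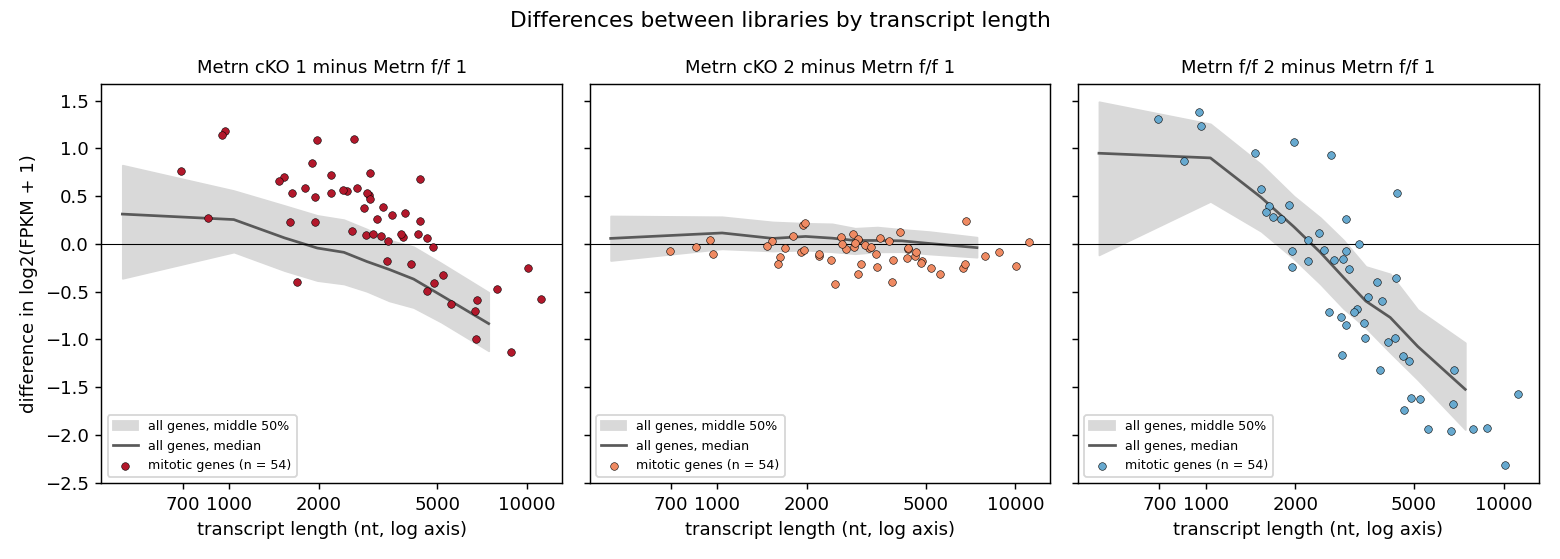
Difference in log2(FPKM + 1) between pairs of libraries against transcript length (nt, log axis); points are the 54 mitotic genes, the line and band are the median and the middle 50% of all genes tested in 10 length bins. In Metrn f/f 2 minus Metrn f/f 1 the points run down the trend of all genes (r = -0.88 over the members), and in Metrn cKO 1 minus Metrn f/f 1 most points lie above it.

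Since the differences moved with length, the length trend of all genes was removed from each library, a step chosen after the data were seen. The comparison of genotypes then had a member median log2 fold change of 0.21, beside 0.01 over all genes with a length, with 46 of 54 above 0 (51.4% of all genes), 0 members passing and a smallest unadjusted p of 0.156 by limma. Both Metrn cKO values lay above both Metrn f/f values in 5 members (7.97% of all genes tested), Cdc25c, G2e3, Kif2c, Ckap2 and Ect2, and below them in Psrc1 alone (8.43%). Metrn f/f 2 then had a member median of -0.06 relative to Metrn f/f 1 (25 of 54 higher; 51% of all genes), and it was still the lowest library in 24 of 54 members (30.6% of all genes), as was Metrn cKO 2 in 24 (26.5%). Metrn cKO 1 was the highest library in 46 of the 54 members (27.6% of all genes tested). Its member median was 0.62 above Metrn cKO 2 (50 of 54 higher; 51.6% of all genes tested), 0.51 above Metrn f/f 1 (48 of 54; 50.9%) and 0.57 above Metrn f/f 2 (52 of 54; 52.2%). Metrn cKO 2, the other library of that genotype, had a median difference of -0.12 from Metrn f/f 1 (9 of 54 higher; 47.6%) and of -0.01 from Metrn f/f 2 (25 of 54; 48.7%). The high level was thus measured in 1 of the 2 Metrn cKO mice. The same mouse had the highest summed B and plasma cell markers (1170 FPKM) and neutrophil markers (58836 FPKM), and the lowest summed LSK and stem cell markers (451 FPKM). Metrn f/f 2 also had high sums of B and plasma cell markers (602 FPKM) and neutrophil markers (32718 FPKM). Its member median, as given above, was -0.06 relative to Metrn f/f 1. Precursors of B cells and neutrophils divide in bone marrow, and their part in the level of mitotic genes was not tested.

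**Figure D4:**
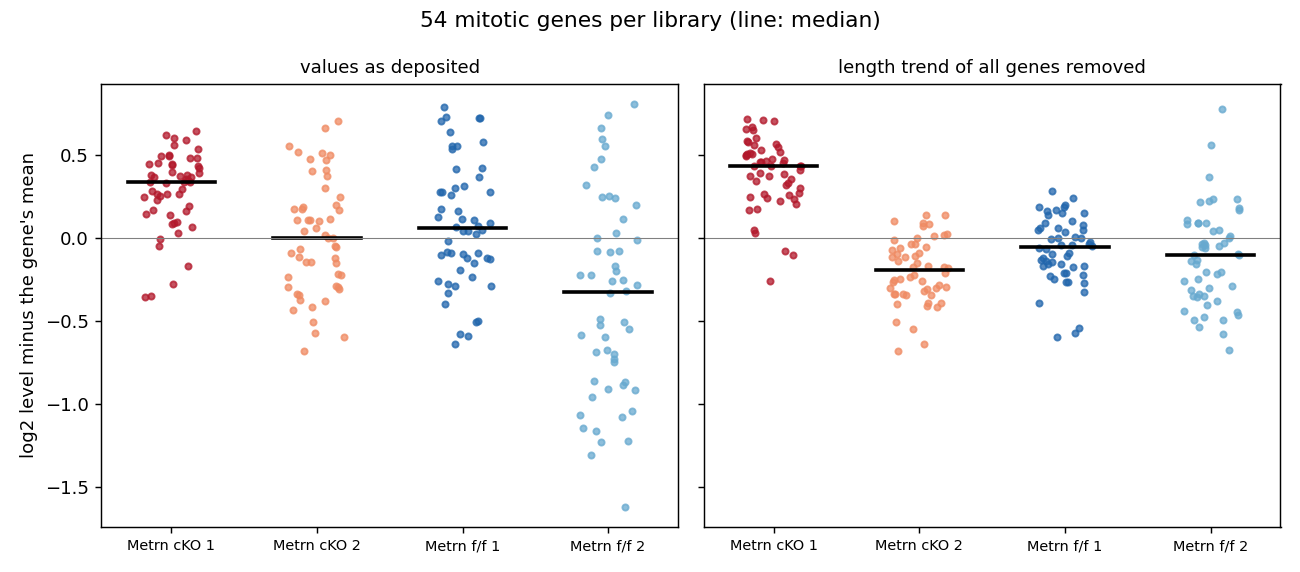
Each point is 1 of the 54 mitotic genes, as its log2 level minus the gene's mean over the 4 libraries, before (left) and after (right) the length trend of all genes was removed; lines are medians. Before removal Metrn f/f 2 has the lowest median (-0.33) and a wide spread, and after it Metrn cKO 1 stands above the other 3 libraries (0.43).

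Other mitotic genes outside the set had a fold change above 0 in 48 of 50 cases (57.6% of all genes tested). None of the 50 passed (limma), and the median log2 fold change was 0.37, with 6 higher without overlap (6.31% of all genes tested) and 0 lower (5.73%). Mis12, a scaffold of the kinetochore, had 17.7 and 13.2 FPKM in Metrn cKO 1 and 2, against 10.6 and 6.05 FPKM in Metrn f/f 1 and 2 (log2 fold change 0.85, SE 0.49). Ccnf, which encodes cyclin F, had 29.8 and 16.4, against 16.8 and 11.1 FPKM. With the length trend removed the median difference of Metrn cKO 1 from Metrn f/f 1 was 0.44 (45 of 50 higher), and for Metrn cKO 2 set against Metrn f/f 1 it was -0.11. The transcription factors above this programme, with MuvB and NF-Y subunits (15 genes), had a median of 0.29 and 3 genes higher without overlap, Foxm1, Mybl2 and Lin9 (6.31% of all genes tested). E2f4, an E2F factor of repressor complexes in resting cells, was the 1 gene lower without overlap (5.73% of all genes tested), at 46.32 and 44.15 FPKM in Metrn cKO 1 and 2, against 50.16 and 49.95 FPKM in Metrn f/f 1 and 2. Foxm1, the forkhead activator of G2 and M genes, had 23.2 and 22.3 FPKM in Metrn cKO 1 and 2, against 21.9 and 9.0 FPKM in Metrn f/f 1 and 2. Mybl2, which joins MuvB in S phase, had 23.5 and 22.3, against 22.0 and 13.2 FPKM. In both genes 3 libraries were alike and Metrn f/f 2 was low. Subunits of the anaphase-promoting complex (16 genes), which are not confined to mitosis, had a median of 0.03, with 0 genes free of overlap in either direction. Their smallest p values were those of Anapc16 (18.6 and 15.1, against 16.0 and 31.9 FPKM) and Cdc26 (13.8 and 19.8, against 18.6 and 24.1 FPKM).

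S phase genes (44 genes), which act earlier in the cycle, had a median log2 fold change of 0.21, with 8 higher without overlap (6.31% of all genes tested), 2 lower (5.73%) and 0 passing. E2f8, a repressor of the E2F family, had 32.3 and 22.8 FPKM in Metrn cKO 1 and 2, against 23.3 and 9.77 FPKM in Metrn f/f 1 and 2. Wdr76, a WD repeat protein that binds damaged DNA, had 9.24 and 11.8, against 9.04 and 2.91 FPKM. With the length trend removed the S phase median of Metrn cKO 1 minus Metrn cKO 2 was 0.25 (37 of 44 higher), beside 0.62 for the mitotic members. The difference between these lists was not tested.

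Members with the CHR letters near the start (31 genes) had a median log2 fold change of 0.27 and those with a window but without them (16 genes) had 0.35. Exons of 10 of the 54 members overlap those of another gene in the annotation, and with the strand setting not given their levels are uncertain. Among the genes whose genotype groups did not overlap, they include Tacc3 (289 bases), Tmpo (244 bases) and Nusap1 (172 bases). Labels do not say more than that the mice were separate animals. The p-values of limma rest on 2 mice per genotype and on a variance that borrows from all genes tested. They do not measure the spread of a single gene alone.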

How the data were processed

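RNA-seq values of 4 libraries of sorted LSK cells, 2 per genotype and from separate mice per the labels' protocols, were used. Per the same protocols, RNA was extracted with TRIZOL and treated with DNase I before standard Illumina library preparation. Per the submitters' processing notes, which give no roles, the build was mm10 and the tools were HISAT2 2.1 and featureCounts 1.6.4, DESeq2 2.11.40.6, and bcl2fastq 2.19 with cutadapt 1.16.5. Which annotation, strand setting and final tool were used is not given in the sources used here. Values deposited by the authors, 1 table per library, were taken as FPKM, since they have decimals, have no negative entry and differ in their sums. Abundant transcripts lower the share left for others, and read depth is unknown.

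The filter asked for 1 FPKM or more in 2 or more libraries and kept 13148 genes. They were tested by limma 3.58.1 in R 4.3.3 on log2(FPKM + 1), 2-sided, with a prior variance that followed the mean level and Benjamini-Hochberg adjustment over all tested genes at 0.05. Fold changes are Metrn cKO minus Metrn f/f on that scale and understate changes of low genes. Standard errors are limma's. Lists are described by counts and medians. The members and lists were chosen with earlier results of these data known. Named members are those without overlap between the genotypes, the highest mean and the smallest p of each role group, and Mki67, Top2a, Cdk1, Ccnb1, Plk1, Aurkb, Birc5 and Cdc20; other lists name the 2 genes with the smallest p. Ect2, Cdca8, Cdca3, Cbx5, Cenpe, Cenpf, Cks1b, Lin9, E2f4, Nkg7, Ly6a, Procr, Slamf1, Gata1, Klf1, Adgrg1, Cd34, Flt3, Kit and the globin genes were named after their values were seen. So were Pax5, Ebf1 and Rag1. Transcript lengths are those of the longest principal transcript in GENCODE release M21 (GRCm38, the assembly called mm10), known for 94.5% of tested genes. The length trend was a lowess curve (span 0.3) of each gene's deviation from its mean on log2 length, subtracted per library. The limma fit and the length step were tested on simulated data. For limma the simulated spread was that of the closest libraries, Metrn cKO 2 and Metrn f/f 1. The SD of their log2 differences was 0.33 over all genes tested, against 1.12 between Metrn f/f mice and 0.93 between Metrn cKO mice. How the fit behaves at the wider spread was not tested. Alternatives were another pseudocount (0.1), no filter, other scalings, no intensity trend, a replicate block and each library left out.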

Additional observations from a re-analysis of the deposited data

How the results depend on the processing

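No member passed the test under any planned or added alternative. Read depth is unknown, so counting error could not be given, and 2 mice per genotype limit every comparison. The count of all genes passing, 0, was 4 with the replicate block and between 0 and 34 when each library was left out (5 without Metrn cKO 1 and 34 without Metrn cKO 2). Without Metrn f/f 1 the median log2 fold change of the set was 0.47. Same-numbered libraries deviated in opposite directions (r = -0.71 over all genes tested), and the labels do not say that the numbers pair mice; with the replicate block 21 members had both same-numbered differences positive. In the crossed replicate block, added after the data were seen, 102 genes passed, 14 members had both differences positive and 6 both negative. The members higher without overlap numbered 2 with median-of-ratios scaling and 2 with equal FPKM sums. They were between 10 and 35 when each library was left out, and those lower between 1 and 14. Fewer libraries make overlap rarer by construction there, and a lone library is assumed to vary like the others. Shares over all genes tested were not taken for the replicate blocks or the left-out libraries, so those counts are no result about the members. Metrn cKO 2 against Metrn f/f 1 alone had 15 members higher and 39 lower, with medians of -0.0696 for the set and -0.0769 for other mitotic genes. Left-out libraries moved the median of the set between 0.0809 and 0.49 and that of other mitotic genes between 0.026 and 0.67. The medians moved by less than the replicate spread under the other alternatives. With no filter, no intensity trend or a replicate block they could not move.

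Of the values of named members under the alternatives, 308 kept direction and 42 turned. With no filter, no intensity trend or either replicate block, fold changes equal the main ones by construction. Those settings could only add to the values kept. Those that turned are given next, and the causes were not tested. With median-of-ratios scaling Cdk1 had -0.0086, and with equal FPKM sums Ube2c had 0.011. With the length trend removed Cdk1 had -0.18, Ube2c 0.17, Birc5 0.15 and Cenpa 0.0077, and with the exonic union length Cdk1 had -0.16, Tubb4b 0.0028 and Tmpo -0.020. In Metrn cKO 2 against Metrn f/f 1 alone the values were -0.056 for Cdk1, -0.42 for Ccnb1, -0.13 for Plk1, -0.067 for Aurkb, 0.041 for Birc5, -0.028 for Ttk, -0.13 for Anln, -0.10 for Kif23, -0.25 for Top2a, -0.23 for Mki67 and -0.0030 for Hmgb2. When each library was left out, the range was -0.32 to 0.42 for Cdk1, -0.39 to 0.58 for Ccnb1, -0.96 to 0.35 for Cks2, -0.040 to 0.81 for Plk1, -0.050 to 0.46 for Cdc20, -0.72 to 0.56 for Ube2c, -0.17 to 1.15 for G2e3, -0.79 to 0.59 for Birc5, -0.63 to 0.32 for Cenpa, -0.37 to 0.063 for Tubb4b, -0.033 to 1.15 for Anln, -0.14 to 0.69 for Kif23, -0.29 to 1.34 for Top2a, -0.24 to 2.07 for Mki67 and -0.47 to 0.63 for Hmgb2.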
